A study of Mus musculus with 18 samples.

Results

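The comparison described here sets mouse cells on day 2 of a chemical reprogramming course (D2) against the embryonic fibroblasts that the course started from (D0). It uses 4 of the 18 RNA sequencing libraries of the series, 2 per group, and the samples were taken by their labels. D2 cells are labelled a reprogramming intermediate. They had been plated as fibroblasts and moved on the following day into a reprogramming medium, which was renewed at intervals of 2 days and whose composition is not given in the sources used here. D0 cells are mouse embryonic fibroblasts (MEF) kept in MEF medium, a serum-containing fibroblast medium. Both groups carry the label 129XOG2 and come from E13.5 embryos, and OG2 mice carry a green fluorescent reporter driven by Pou5f1 (Oct4) sequences. The other libraries are of days 4, 6, 8, 10 and 12, of reprogrammed stem cells and of embryonic stem cells. They entered the same statistical fit to estimate the spread between replicates. Nothing in the labels says that the 2 libraries of a group came from separate cultures, and the spread that the p-values rest on may be no more than technical. A MEF preparation is a mixture of embryonic cells, and in bulk RNA fewer cells of a type and less RNA per cell cannot be told apart.

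Chemical reprogramming turns somatic cells toward pluripotency with small molecules in place of introduced transcription factors. Cultured MEF are contractile cells that carry smooth muscle actin fibres and deposit collagen and elastin, and serum response factor (SRF), YAP and TGF-beta keep that programme active on plastic. Metallothioneins bind zinc and copper, NRF2 targets detoxify electrophiles, and retinoic acid induces its own transporters and degrading enzymes.

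Levels are in FPKM, which are sequenced fragments divided by transcript length and by the size of the library. Of 55401 genes in the files, 16439 had at least 1 FPKM in at least 2 of the 18 libraries and were tested. Fold changes are D2 over D0 on the log2(FPKM + 1) scale after a trend with transcript length was removed, are given ± SE, and understate the change of genes with low values. Adjusted p-values are those of limma after Benjamini-Hochberg adjustment over all genes tested. Genes with an adjusted p under 0.05 and a change of at least 2-fold count as called, and rose and fell are used only of these. Where both D0 libraries were at 0, no fold is given. A listed 0 can be a failed estimate, since mt-Nd1 and mt-Atp6, genes that every cell uses, are at 0 in all 4 libraries.

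The 2 D2 libraries were not independent in the deposited values. The other 16 libraries hold values with at most 6 decimals, and D2 holds up to 9. Of D2 values from 1 to 90 FPKM, 17.3% in each library were whole multiples of 1e-06, and all were so after multiplication by 6 (within 0.05 of a whole unit). In all 19899 genes above 0 in both libraries and under 90 FPKM, the 2 values summed to a whole multiple of 1e-06. D2 replicate 1 was nowhere more than 5 times D2 replicate 2 among genes of at least 0.01 FPKM, and 2018 genes sat at that ratio within 6e-06 FPKM. No gene was above 0 in D2 replicate 1 and at 0 in D2 replicate 2, whereas 2638 genes showed the reverse. In D0, 3535 genes were at 0 only in replicate 1 and 769 only in replicate 2. The step that made the D2 values is not stated in the sources used here, so counts are also given with D2 as 1 sample, the mean of its libraries, a setting chosen after the data were seen. In that setting the spread allowed to D2 still came from the difference between its 2 libraries, so their dependence is not fully removed. No depth is given for D2, and FPKM hold no counts for D0.

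**Figure D1:**
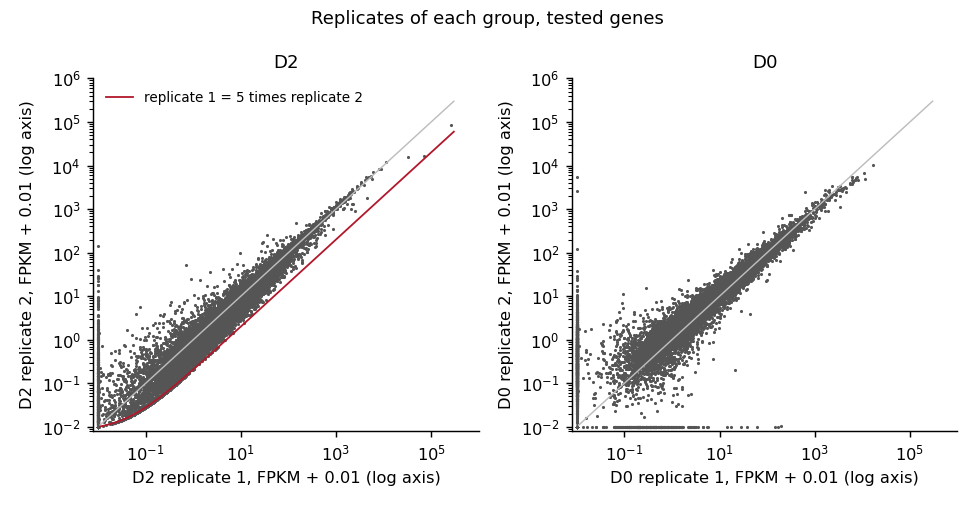
Replicate 2 against replicate 1 for the tested genes in D2 (left) and D0 (right), in FPKM plus 0.01 on log axes; each point is a gene and the grey line marks equal values. In D2 no point lies to the right of the red line at which replicate 1 is 5 times replicate 2, whereas points in D0 lie on both sides of the grey line and along both axes.

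Replicates of both groups also spread more widely than elsewhere in the series. On the log2 scale, 2 replicates differed by a median of 0.243 in D2 and 0.28 in D0, against 0.0897 to 0.184 in the other groups. Transcripts encoded by mitochondrial DNA made up 34.1% and 15.9% of all FPKM in D2, against 0.437% and 1.89% in D0. One short gene, mt-Nd4l, whose call depends on the setting, held most of that sum in D2, and with genes weighted by length the share was 5.94% and 2.29% in D2, against 0.115% and 0.275% in D0. Ribosomal protein genes made up 14.5% and 22.3% of all FPKM in D2, against 32.8% and 27.3% in D0. With genes weighted by length their share was 15.7% and 19.7% in D2, against 26.8% and 21.0% in D0. As deposited, the median log2 fold change of coding genes was 0 below 1 kb of exonic length and 0.74 from 8 kb upward, which is the trend that was removed.

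D2 held far less transcript of the contractile apparatus and of several secreted matrix proteins, and more of the transcripts of metallothioneins, retinoid metabolism, Wnt feedback and NRF2 targets. In all, 1487 genes rose and 1126 fell, which is 15.9% of the genes tested, 9.05% higher and 6.85% lower, and 56.9% of calls were higher. With the length trend left in, 2912 rose and 643 fell, so 81.9% of calls were higher. With D2 as 1 sample 1339 rose (8.15%) and 927 fell (5.64%), of which 1296 and 917 were among the calls above. Leaving out D2 replicate 1 gave 852 and 661, and leaving out D0 replicate 1 gave 973 and 790. The median change over all genes tested was -0.07. In untransformed FPKM, both D2 libraries exceeded both D0 libraries in 50.6% of tested genes and lay below both in 17.4%. Statements that the groups of a gene did not overlap are to be read against these shares, and the D2 libraries are not independent. Counts of list members that rose or fell, given below, are likewise to be read against the 9.05% and 6.85% of all genes tested.

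**Figure D2:**
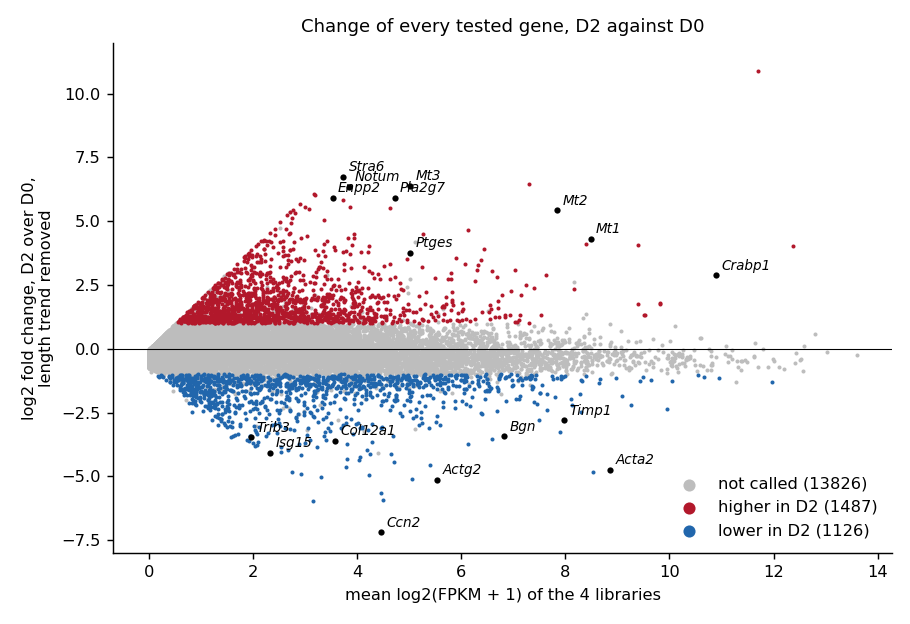
Log2 fold change of D2 over D0, with the length trend removed, against the mean log2(FPKM + 1) of the 4 libraries for all 16439 genes tested. Red points rose (1487), blue points fell (1126) and grey points were not called; Ccn2 lies lowest at -7.20 and the metallothioneins Mt1 and Mt2 combine high levels with large increases.

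The genes with the largest changes were taken by rank, 15 in each direction, among those averaging at least 10 FPKM in either group. Of the risers, several encode secreted or surface proteins with known enzymes or ligands. Agtr2, the type 2 receptor of angiotensin II, was at 145 and 44.2 FPKM in the D2 libraries, against 0 in both D0 libraries (adjusted p = 1.9e-06). Calcb, which encodes a calcitonin gene-related peptide, was at 79 and 70.3 FPKM in the D2 libraries, against 0 and 0.244 FPKM in the D0 libraries (log2 fold change 6.01 ± 0.21, adjusted p = 2.9e-08). Both genes were almost unread in D0 and well above it in each D2 library. Enpp2 encodes autotaxin, the enzyme that makes lysophosphatidic acid, and had 196 and 58 FPKM in the D2 libraries, against 0.209 and 0.267 FPKM in the D0 libraries (log2 fold change 5.93 ± 0.43, adjusted p = 1.9e-06). Pla2g7, the plasma platelet-activating factor acetylhydrolase, had 358 and 137 FPKM in the D2 libraries, against 1.42 and 3.04 FPKM in the D0 libraries (log2 fold change 5.92 ± 0.39, adjusted p = 1.1e-06). In these 2 lipid enzyme genes D2 replicate 1 was the higher of the D2 libraries, and the groups did not overlap. Aldh3a1, an aldehyde dehydrogenase, was at 57.6 and 51.1 FPKM in the D2 libraries, against 0 in both D0 libraries (adjusted p = 7.8e-08). Tnfsf9, the ligand of the costimulatory receptor 4-1BB, was at 81 and 37.3 FPKM in the D2 libraries, against 0 and 0.279 FPKM in the D0 libraries (log2 fold change 5.56 ± 0.34, adjusted p = 6.5e-07). The list also held Nrgn, a calmodulin-binding protein of neurons (5.56 ± 0.36), and Aqp5, a water channel of glands (5.51 ± 0.25), each clear of D0 in both libraries. The rank also took in the pseudogene Gm28439, which was at 0 in both D0 libraries, can share reads with mitochondrial DNA and is uncertain, and its call was lost without D2 replicate 1 (adjusted p = 0.14) and without either D0 library.

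Among the 15 deepest decreases, Vamp5, a vesicle SNARE protein of muscle, had 0.0531 and 1.1 FPKM in the D2 libraries, against 44.2 and 31.6 FPKM in the D0 libraries (log2 fold change -4.90 ± 0.68, adjusted p = 0.00028). Meg3, a maternally expressed long noncoding RNA, had 6.52 and 16.5 FPKM in the D2 libraries, against 119 and 196 FPKM in the D0 libraries (log2 fold change -4.56 ± 0.42, adjusted p = 1.3e-05). The groups did not overlap in either gene. Anxa3, an annexin, had 0 and 39.6 FPKM in the D2 libraries, against 143 and 208 FPKM in the D0 libraries (log2 fold change -5.09 ± 1.16, adjusted p = 0.0073), and its value was -2.39 without D2 replicate 1 and -7.80 without D2 replicate 2. Its call was lost in a fit of the 4 libraries alone (adjusted p = 0.13). Prss23, a serine protease, had 0 and 13.2 FPKM in the D2 libraries, against 70.8 and 119 FPKM in the D0 libraries (log2 fold change -4.97 ± 0.87, adjusted p = 0.0015), and its value was -3.01 without D2 replicate 1. Its call was also lost in the fit of 4 libraries (adjusted p = 0.077). Of the genes tested, 537 were at 0 in D2 replicate 1 only, and 80 of them were called lower.

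Metallothionein transcripts rose steeply. Mt1 had 1611 and 1665 FPKM in the D2 libraries, against 88.2 and 67.6 FPKM in the D0 libraries (log2 fold change 4.32 ± 0.25, adjusted p = 5.2e-07). Mt2 had 1525 and 1539 FPKM in the D2 libraries, against 35 and 31.8 FPKM in the D0 libraries (log2 fold change 5.43 ± 0.23, adjusted p = 5.1e-08). Mt3, the form known from brain, had 312 and 296 FPKM in the D2 libraries, against 3.58 and 1.62 FPKM in the D0 libraries (log2 fold change 6.40 ± 0.49, adjusted p = 3.2e-06). Both D2 libraries lay far above D0 for each of the 3 genes. Of 14 genes of metal binding and transport tested, 5 rose and 0 fell, with a median of 0.37. Slc30a4, a zinc exporter into vesicles, had 18.5 and 8.56 FPKM in the D2 libraries, against 0.251 and 2.25 FPKM in the D0 libraries (log2 fold change 2.26 ± 0.35, adjusted p = 0.00065). Slc30a1, the zinc exporter of the plasma membrane, had 1.71 and 1.48 FPKM in the D2 libraries, against 0.975 and 1.18 FPKM in the D0 libraries and was not called (log2 fold change -0.16 ± 0.19, adjusted p = 0.6).

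The 3 metallothionein genes lie together on chromosome 8, and their promoter windows are shown because these genes rose together. Each window runs from 250 bases before to 50 bases after the annotated start, on the plus strand of GRCm38.p6, from RefSeq. Capitals mark the core of the metal response element, TGCACNC or TGCGCNC, or its reverse complement, the motif that the zinc-sensing factor MTF1 is known to bind. Mt3 lies at chr8:94152357-94152656, Mt2 at chr8:94172368-94172667 and Mt1 at chr8:94178839-94179138.
Mt3: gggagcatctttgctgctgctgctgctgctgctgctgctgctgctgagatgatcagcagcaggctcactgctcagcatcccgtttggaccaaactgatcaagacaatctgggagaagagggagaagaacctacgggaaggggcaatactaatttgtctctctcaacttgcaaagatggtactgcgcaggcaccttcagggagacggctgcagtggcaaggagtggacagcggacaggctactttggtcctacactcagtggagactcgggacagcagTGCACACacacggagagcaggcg
Mt2: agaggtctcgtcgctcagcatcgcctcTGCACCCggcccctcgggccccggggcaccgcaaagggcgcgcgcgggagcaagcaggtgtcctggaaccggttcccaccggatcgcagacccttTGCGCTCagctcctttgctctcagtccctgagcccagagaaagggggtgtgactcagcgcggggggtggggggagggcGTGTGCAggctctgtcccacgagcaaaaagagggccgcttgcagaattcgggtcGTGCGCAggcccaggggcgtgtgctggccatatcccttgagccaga
Mt1: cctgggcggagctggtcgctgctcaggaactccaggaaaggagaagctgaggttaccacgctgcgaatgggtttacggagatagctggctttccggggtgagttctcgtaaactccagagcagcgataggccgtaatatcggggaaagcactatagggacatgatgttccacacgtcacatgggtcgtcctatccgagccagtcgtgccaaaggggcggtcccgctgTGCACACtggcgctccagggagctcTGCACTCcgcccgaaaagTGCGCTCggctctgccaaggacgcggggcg
Matches numbered 4 in Mt2, 3 in Mt1 and 1 in Mt3. Of 12 members of the metal list with a window 8 held a match in any of their windows, among them Slc30a1, which was not called. Of 32851 promoter windows of this size, 25.7% held at least 1 match and 1.97% at least 3. These count single windows and the list counts genes, so the shares are not in the same unit. A match is a description of letters and not of a bound site.

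Several NRF2 target genes rose and none fell. Of 13 tested, 7 rose and 0 fell, with a median of 1.60, against -0.07 over all genes. Gsta4, a glutathione transferase, had 188 and 235 FPKM in the D2 libraries, against 17.1 and 15.1 FPKM in the D0 libraries (log2 fold change 3.56 ± 0.28, adjusted p = 3.6e-06). Nqo1, a quinone reductase, had 18 and 18.7 FPKM in the D2 libraries, against 0 and 2.99 FPKM in the D0 libraries (log2 fold change 3.19 ± 0.41, adjusted p = 0.00016). G6pdx, which supplies NADPH, had 38.7 and 24.6 FPKM in the D2 libraries, against 2.11 and 4.12 FPKM in the D0 libraries (log2 fold change 2.74 ± 0.22, adjusted p = 5.1e-06). In all 3 genes each D2 library exceeded each D0 library, as in 50.6% of all genes tested. The genes of sulfiredoxin and thioredoxin reductase also rose, Srxn1 at 2.08 ± 0.20 and Txnrd1 at 1.76 ± 0.28, as did Gclc, the catalytic subunit of glutathione synthesis, at 1.73 ± 0.30. The call of Gclc was lost with a pseudocount of 5 (0.85). Hmox1, the heme oxygenase often used as the marker of this response, had 17.5 and 20.3 FPKM in the D2 libraries, against 14.4 and 22.9 FPKM in the D0 libraries and was not called (log2 fold change -0.05 ± 0.20, adjusted p = 0.9). Its D2 and D0 values overlapped.

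Prostaglandin synthesis genes moved in both directions. Ptges, the inducible prostaglandin E synthase, had 139.9 and 129 FPKM in the D2 libraries, against 6.79 and 6.66 FPKM in the D0 libraries (log2 fold change 3.77 ± 0.21, adjusted p = 3.8e-07). Ptgs1, the constitutive cyclooxygenase, had 36.5 and 24.3 FPKM in the D2 libraries, against 3.49 and 3.27 FPKM in the D0 libraries (log2 fold change 2.46 ± 0.26, adjusted p = 3e-05). Ptgis, the prostacyclin synthase, had 3.77 and 6.82 FPKM in the D2 libraries, against 39 and 31 FPKM in the D0 libraries (log2 fold change -2.74 ± 0.39, adjusted p = 0.00036). The synthase of prostaglandin E was therefore higher and that of prostacyclin lower, with no overlap between groups in either. Ptgs2, the inducible cyclooxygenase, had 7.77 and 10.7 FPKM in the D2 libraries, against 4.39 and 8.76 FPKM in the D0 libraries and was not called (log2 fold change 0.06 ± 0.26, adjusted p = 0.91). Of 12 genes in the list 7 passed the filter, of which 2 rose and 1 fell.

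Several genes that carry or degrade retinoic acid rose. Of 20 retinoid genes tested, 7 rose and 2 fell, with a median of 0.40. Cyp26b1, an enzyme that degrades retinoic acid, had 84.8 and 39.1 FPKM in the D2 libraries, against 1.28 and 2.88 FPKM in the D0 libraries (log2 fold change 3.81 ± 0.27, adjusted p = 1.6e-06). Dhrs3, which reduces retinaldehyde, had 227 and 232 FPKM in the D2 libraries, against 15.6 and 22 FPKM in the D0 libraries (log2 fold change 3.32 ± 0.25, adjusted p = 3.1e-06). Rarb, the receptor gene that retinoic acid itself induces, had 20.5 and 9.93 FPKM in the D2 libraries, against 0.25 and 0.754 FPKM in the D0 libraries (log2 fold change 2.89 ± 0.32, adjusted p = 4.8e-05). All 3 are known retinoic acid targets, and none had a D2 library within the D0 range. Both D2 libraries exceeded both D0 libraries in 50.6% of all genes tested. Crabp1, a cytosolic retinoic acid carrier, was already abundant in D0 and had 5802 and 4851 FPKM in the D2 libraries, against 730.3 and 652 FPKM in the D0 libraries (log2 fold change 2.89 ± 0.25, adjusted p = 7.2e-06). Crabp2, the carrier that delivers the ligand to receptors, had 91.5 and 81.9 FPKM in the D2 libraries, against 25.7 and 29.7 FPKM in the D0 libraries and was not called (log2 fold change 1.54 ± 0.57, adjusted p = 0.066). Its 2 groups did not overlap, and it was called without group weights (adjusted p = 0.00011) and in the fit of 4 libraries (adjusted p = 0.014). Rara, a retinoic acid receptor, fell (-1.05 ± 0.25), and its call was lost without D2 replicate 1 (adjusted p = 0.058), without D0 replicate 2 (-0.92), in the fit of 4 libraries and with the length trend left in.

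Most contractile genes fell. Of 17 contractile and SRF target genes tested, 13 fell and 0 rose, with a median of -2.20. Actg2, enteric smooth muscle actin, had 2.72 and 16.6 FPKM in the D2 libraries, against 228 and 312 FPKM in the D0 libraries (log2 fold change -5.13 ± 0.52, adjusted p = 2.7e-05). Cnn1, smooth muscle calponin, had 4.59 and 6.58 FPKM in the D2 libraries, against 85.7 and 109 FPKM in the D0 libraries (log2 fold change -4.12 ± 0.53, adjusted p = 0.00015), with the call lost at a pseudocount of 0.1 (adjusted p = 0.088). Lmod1, which nucleates actin filaments in smooth muscle, had 0.386 and 0.667 FPKM in the D2 libraries, against 8.64 and 12.3 FPKM in the D0 libraries (log2 fold change -3.26 ± 0.20, adjusted p = 6.5e-07). For these the lower D0 library was many times the higher D2 library. Myl9, the regulatory myosin light chain, had 70.1 and 86.8 FPKM in the D2 libraries, against 646 and 788 FPKM in the D0 libraries (log2 fold change -3.24 ± 0.27, adjusted p = 5.2e-06). Tagln and Acta2, the usual markers of the myofibroblast state, fell by 4.85 and 4.75 on the log2 scale, and in both D2 replicate 2 was well above D2 replicate 1 (29.2 and 171 FPKM for Tagln and 34.7 and 249.8 FPKM for Acta2, replicate 1 first). Srf itself had 14.3 and 19.3 FPKM in the D2 libraries, against 33.5 and 36.5 FPKM in the D0 libraries (log2 fold change -1.26 ± 0.23, adjusted p = 0.0017). The call of Srf was lost at a pseudocount of 5 (-0.99) and after quantile normalization (-0.92).

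Not every actin-associated gene followed. Tpm4, a cytoskeletal tropomyosin, had 281 and 225 FPKM in the D2 libraries, against 137 and 279 FPKM in the D0 libraries (log2 fold change 0.22 ± 0.25, adjusted p = 0.6). Actn1, alpha-actinin, had 40.9 and 60.4 FPKM in the D2 libraries, against 34 and 59.7 FPKM in the D0 libraries (log2 fold change -0.36 ± 0.30, adjusted p = 0.43). Vcl, vinculin of focal adhesions, had 32.5 and 18.4 FPKM in the D2 libraries, against 9.12 and 17.4 FPKM in the D0 libraries (log2 fold change 0.24 ± 0.41, adjusted p = 0.73). None of these was called. In Tpm4 and Actn1 the 2 groups overlapped, whereas both D2 values of Vcl lay above D0.

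**Figure D3:**
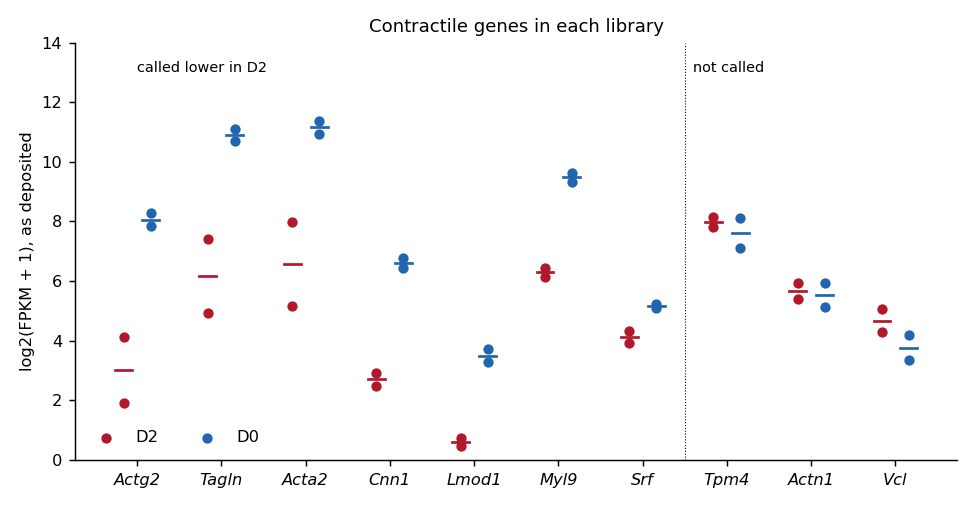
Log2(FPKM + 1) as deposited of 10 contractile and SRF target genes in each library, with D2 in red left of D0 in blue; points are libraries and bars are the mean of 2. The 7 genes left of the dotted line fell, and the D2 points of Actg2, Tagln and Acta2 lie far apart; Tpm4, Actn1 and Vcl on the right were not called.

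The CArG box is the sequence that SRF binds, CC followed by a run of 6 A or T and GG. Of 14 members of the contractile and SRF target list with a promoter window, 4 held a CArG box in any of their windows, namely Cnn2, Myl9, Srf and Vcl. Of all windows, counted singly, 1.63% held one. The list was written to include SRF targets and the units differ, so these shares cannot be compared as a test. Myl9 fell and Vcl was not called. The window of Myl9, at chr2:156775214-156775513 on the plus strand, is given to show the box, in capitals.
Myl9: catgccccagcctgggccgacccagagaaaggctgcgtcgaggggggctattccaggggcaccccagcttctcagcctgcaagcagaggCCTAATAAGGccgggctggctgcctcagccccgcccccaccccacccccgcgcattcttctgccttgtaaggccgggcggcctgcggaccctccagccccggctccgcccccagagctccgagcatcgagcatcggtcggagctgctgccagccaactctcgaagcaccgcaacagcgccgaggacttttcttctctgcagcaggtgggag
The pattern matches on both strands at the same place, which counts as 1 match. No match in the other windows says only that these letters are not within them.

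Many YAP target genes fell as well. Of 12 tested, 8 fell and 0 rose, with a median of -1.48. With a pseudocount of 5 5 fell, and with the length trend left in 6 fell and 1 rose. Ankrd1, a nuclear cofactor of muscle and fibroblasts, had 0 and 2.52 FPKM in the D2 libraries, against 44.8 and 57.1 FPKM in the D0 libraries (log2 fold change -5.02 ± 0.48, adjusted p = 1.5e-05). Ccn1, a matricellular protein, had 17.4 and 40 FPKM in the D2 libraries, against 99 and 159 FPKM in the D0 libraries (log2 fold change -2.33 ± 0.35, adjusted p = 0.00046). Ccn2, its close relative, had 0.388 and 1.78 FPKM in the D2 libraries, against 199 and 302 FPKM in the D0 libraries (log2 fold change -7.20 ± 0.29, adjusted p = 4.2e-08). Amotl2, a scaffold that restrains YAP, had 2.92 and 4.14 FPKM in the D2 libraries, against 9.63 and 17.4 FPKM in the D0 libraries (log2 fold change -2.19 ± 0.29, adjusted p = 0.00019). No D2 library reached the D0 range in any of the 4 genes, as in 17.4% of all genes tested.

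Most markers of striated muscle, of smooth muscle and pericytes, and of myeloid cells fell too, and their part in these decreases was not tested. Of 11 striated muscle markers tested 10 fell, and their summed level was 47.7 and 56.9 FPKM in D2 and 549 and 438 FPKM in D0. Of 7 smooth muscle and pericyte markers 5 fell and 1 rose, summing to 31.7 and 35.1 FPKM in D2 and 159 and 135 FPKM in D0. Of 10 myeloid markers 8 fell, summing to 17.0 and 18.1 FPKM in D2 and 120.2 and 131 FPKM in D0, and Ptprc was at 0 in 3 of the 4 libraries and at 0.131 FPKM in D0 replicate 2. Other panels were mixed. Of 7 endothelial markers 2 rose and 0 fell, and of 2 erythroid markers 2 rose. Of 7 keratinocyte markers 2 rose and 2 fell, and of 6 neural and glial markers 1 rose and 1 fell. Of 8 chondrocyte and bone markers 1 rose and 2 fell. Of 12 epithelial markers 0 rose and 1 fell, and of 4 adipocyte markers 0 rose and 2 fell. Over all genes tested 9.05% rose and 6.85% fell. Of 15 fibroblast and stroma markers 4 rose and 5 fell, and their sum was 3236 and 3313 FPKM in D2 and 3758 and 4348 FPKM in D0. In sum, fibroblast and stroma markers were thus present in both groups, while single markers changed in both directions. Cdh1, the defining cadherin of epithelium, stayed under 0.1 FPKM in each of the 4 libraries compared.

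Matrix genes did not fall as a block. Of 18 collagen genes outside type IV, 10 fell and 3 rose, with a median of -1.13. Without D2 replicate 2, 5 rose. Col12a1, a collagen on the surface of fibrils, had 3.08 and 3.99 FPKM in the D2 libraries, against 29.7 and 32 FPKM in the D0 libraries (log2 fold change -3.61 ± 0.25, adjusted p = 1.5e-06). Col1a1, the main chain of type I collagen, had 68.6 and 98.2 FPKM in the D2 libraries, against 303 and 502 FPKM in the D0 libraries (log2 fold change -2.80 ± 0.25, adjusted p = 1e-05). Col18a1, a basement membrane collagen that carries endostatin, had 213 and 92.3 FPKM in the D2 libraries, against 7.18 and 11.4 FPKM in the D0 libraries (log2 fold change 3.21 ± 0.28, adjusted p = 7.2e-06). Type I and type XII collagen thus went one way and type XVIII the other. Col6a1, of the beaded filaments, had 377 and 141 FPKM in the D2 libraries, against 38.6 and 56.1 FPKM in the D0 libraries (log2 fold change 1.88 ± 0.37, adjusted p = 0.0032), and its value was 1.23 without D2 replicate 1. In the fit of 4 libraries its call was lost (adjusted p = 0.064) and 1 collagen gene was higher. Col3a1 had 112 and 73.5 FPKM in the D2 libraries, against 62.8 and 109.8 FPKM in the D0 libraries, which overlap, and was not called (log2 fold change -0.58 ± 0.21, adjusted p = 0.061).

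Elastic fibre genes moved in both directions. Of 20 tested, 9 fell and 3 rose, with a median of -0.87. Mfap5, a microfibril glycoprotein, had 0.256 and 1.01 FPKM in the D2 libraries, against 18.7 and 21.4 FPKM in the D0 libraries (log2 fold change -4.05 ± 0.45, adjusted p = 5e-05). Lox, the enzyme that crosslinks elastin and collagen, had 2.14 and 5.5 FPKM in the D2 libraries, against 32.7 and 56 FPKM in the D0 libraries (log2 fold change -3.72 ± 0.32, adjusted p = 7.2e-06). Loxl1, a relative of Lox, had 9.14 and 23.1 FPKM in the D2 libraries, against 68.4 and 89.8 FPKM in the D0 libraries (log2 fold change -2.63 ± 0.37, adjusted p = 0.00028). These fell with Eln (-5.65 ± 0.25), the core protein of the fibre. Fbln1, a fibulin bound to elastic fibres and basement membranes, had 177 and 89.6 FPKM in the D2 libraries, against 19.4 and 30.7 FPKM in the D0 libraries (log2 fold change 1.92 ± 0.24, adjusted p = 0.00013). Efemp1 had 52.9 and 38.5 FPKM in the D2 libraries, against 7.59 and 10.21 FPKM in the D0 libraries (log2 fold change 2.11 ± 0.21, adjusted p = 2.4e-05). Emilin2 rose as well (1.93 ± 0.28). Fbn1, the backbone of the microfibril, had 21.1 and 13.2 FPKM in the D2 libraries, against 7.64 and 11.3 FPKM in the D0 libraries and was not called (log2 fold change 0.04 ± 0.27, adjusted p = 0.95).

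Small leucine-rich proteoglycans, which coat collagen fibrils, also parted. Dcn (decorin) had 89.9 and 34.2 FPKM in the D2 libraries, against 0 and 5.08 FPKM in the D0 libraries (log2 fold change 4.00 ± 0.55, adjusted p = 0.00026). Lum (lumican) had 78.7 and 28.2 FPKM in the D2 libraries, against 1.05 and 3.25 FPKM in the D0 libraries (log2 fold change 3.85 ± 0.41, adjusted p = 3.8e-05). Bgn (biglycan), the close relative of decorin, had 23.2 and 70 FPKM in the D2 libraries, against 304 and 311 FPKM in the D0 libraries (log2 fold change -3.44 ± 0.45, adjusted p = 0.00017). Decorin was above biglycan in D2 replicate 1 and below it in D2 replicate 2, whereas it was far below biglycan in both D0 libraries. Fmod fell by 2.84, Aspn by 2.83 and Ogn by 2.37 on the log2 scale. Of 9 tested, 2 rose and 5 fell.

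Several matrix metalloproteinases, which cut these proteins, rose while an inhibitor fell. Mmp11 (stromelysin-3) had 194 and 66.2 FPKM in the D2 libraries, against 5.96 and 9.35 FPKM in the D0 libraries (log2 fold change 3.53 ± 0.44, adjusted p = 0.00012). Mmp2, a gelatinase, had 249 and 101 FPKM in the D2 libraries, against 14.4 and 24.3 FPKM in the D0 libraries (log2 fold change 2.72 ± 0.33, adjusted p = 0.0001). Mmp13, a collagenase, had 19.3 and 6.79 FPKM in the D2 libraries, against 0 in both D0 libraries (adjusted p = 3.1e-05). Mmp3 (2.48 ± 0.20) and Mmp10 (2.14 ± 0.37), both stromelysins, rose too. Timp1, the inducible inhibitor, had 55.2 and 165 FPKM in the D2 libraries, against 722 and 582 FPKM in the D0 libraries (log2 fold change -2.80 ± 0.38, adjusted p = 0.00025). Timp2 had 172 and 171 FPKM in the D2 libraries, against 154 and 156 FPKM in the D0 libraries (log2 fold change -0.21 ± 0.17, adjusted p = 0.43) and Mmp14, the membrane type that activates Mmp2, had 555 and 414 FPKM in the D2 libraries, against 322 and 264 FPKM in the D0 libraries (log2 fold change 0.18 ± 0.27, adjusted p = 0.68). Neither was called. Of 13 genes tested 5 rose and 3 fell, and without D0 replicate 1 only 1 was lower.

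**Figure D4:**
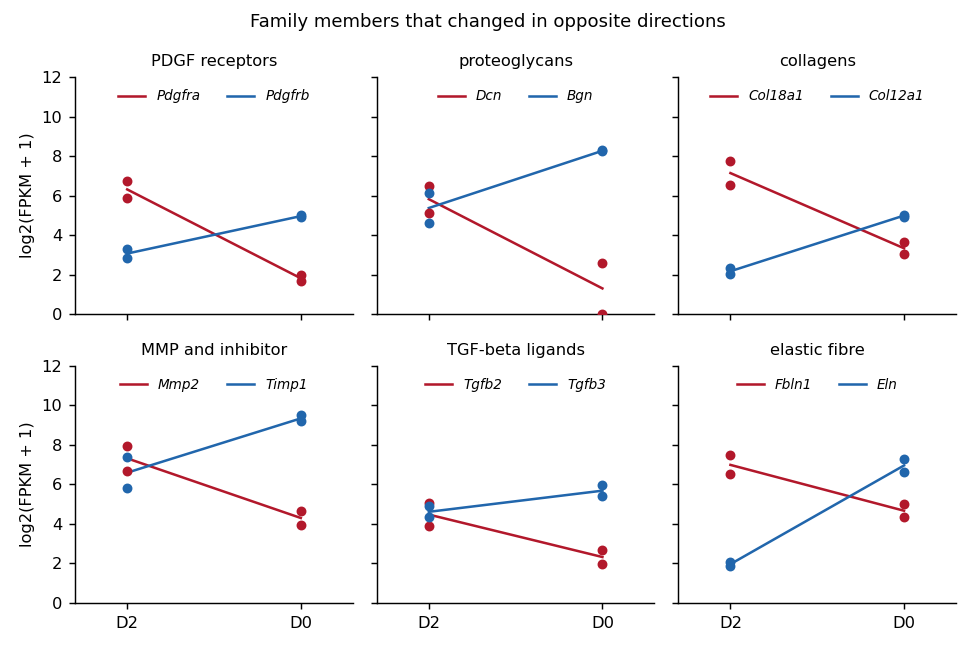
Log2(FPKM + 1) as deposited for 6 pairs of related genes, D2 on the left of each panel and D0 on the right; points are libraries and lines join group means. In each pair the red gene (Pdgfra, Dcn, Col18a1, Mmp2, Tgfb2, Fbln1) rose and the blue gene (Pdgfrb, Bgn, Col12a1, Timp1, Tgfb3, Eln) fell.

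The receptors for platelet-derived growth factor moved apart in the same way. Pdgfra had 105 and 58.6 FPKM in the D2 libraries, against 2.18 and 2.89 FPKM in the D0 libraries (log2 fold change 3.79 ± 0.25, adjusted p = 1.1e-06). Pdgfrb had 8.79 and 6.18 FPKM in the D2 libraries, against 28.9 and 31.5 FPKM in the D0 libraries (log2 fold change -2.39 ± 0.26, adjusted p = 4e-05). In FPKM the alpha receptor was the more abundant of the 2 in D2, and the beta receptor in D0. Of 13 growth factor receptors of mesenchymal cells 2 rose and 4 fell. Kdr, the receptor of VEGF-A, had 11.7 and 3.59 FPKM in the D2 libraries, against 0.0945 and 0.392 FPKM in the D0 libraries (log2 fold change 1.94 ± 0.31, adjusted p = 0.00083), with the call lost at a pseudocount of 5 (0.87). Its ligand gene Vegfa had 23.7 and 21.5 FPKM in the D2 libraries, against 2.36 and 4.61 FPKM in the D0 libraries (log2 fold change 2.05 ± 0.25, adjusted p = 0.00011). Igfbp3, a carrier of insulin-like growth factors, had 374 and 165 FPKM in the D2 libraries, against 21.2 and 26.6 FPKM in the D0 libraries (log2 fold change 3.07 ± 0.30, adjusted p = 2.2e-05), whereas Igf2 had 485 and 299 FPKM in the D2 libraries, against 208 and 390.2 FPKM in the D0 libraries and was not called (log2 fold change -0.10 ± 0.47, adjusted p = 0.92).

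The ligands and inhibitors of TGF-beta superfamily signalling changed in both directions. Tgfb2 had 32.3 and 13.8 FPKM in the D2 libraries, against 2.86 and 5.49 FPKM in the D0 libraries (log2 fold change 1.63 ± 0.31, adjusted p = 0.0024). Tgfb3 had 28.6 and 19.2 FPKM in the D2 libraries, against 41.3 and 61.4 FPKM in the D0 libraries (log2 fold change -1.37 ± 0.29, adjusted p = 0.0049). The call of Tgfb2 was lost in the fit of 4 libraries (adjusted p = 0.057) and at a pseudocount of 0.1 (adjusted p = 0.05003), and that of Tgfb3 after quantile normalization (-0.91). Inhba, the subunit of activin A, had 72.3 and 33 FPKM in the D2 libraries, against 5.31 and 9.92 FPKM in the D0 libraries (log2 fold change 2.03 ± 0.38, adjusted p = 0.0022), with the call lost at a pseudocount of 0.1 (adjusted p = 0.35). Tgfbi, a TGF-beta-induced matrix protein, had 296 and 159 FPKM in the D2 libraries, against 23.7 and 28.6 FPKM in the D0 libraries (log2 fold change 2.67 ± 0.28, adjusted p = 3.5e-05), while Ltbp2, a latent TGF-beta binding protein, had 0.83 and 1.64 FPKM in the D2 libraries, against 11.8 and 13.8 FPKM in the D0 libraries (log2 fold change -3.30 ± 0.28, adjusted p = 6.1e-06). Pmepa1, a feedback inhibitor induced by TGF-beta, had 9.64 and 14.9 FPKM in the D2 libraries, against 33.8 and 42.8 FPKM in the D0 libraries (log2 fold change -2.04 ± 0.28, adjusted p = 0.00023). Known TGF-beta targets therefore stood on both sides, and of 15 genes in the list 6 rose and 5 fell.

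Among BMP genes Bmp2 had 28.2 and 17.8 FPKM in the D2 libraries, against 0.522 and 0.481 FPKM in the D0 libraries (log2 fold change 3.64 ± 0.34, adjusted p = 1.3e-05). Bmp7 had 35.9 and 15 FPKM in the D2 libraries, against 0 and 1.78 FPKM in the D0 libraries (log2 fold change 3.49 ± 0.39, adjusted p = 5.2e-05). Grem1, a secreted antagonist of both, had 42.7 and 22.4 FPKM in the D2 libraries, against 1.97 and 2.92 FPKM in the D0 libraries (log2 fold change 2.85 ± 0.28, adjusted p = 1.8e-05). Ligands and antagonist thus rose together. Id1, the usual target, had 495 and 515 FPKM in the D2 libraries, against 208 and 204 FPKM in the D0 libraries. It was not called (log2 fold change 1.22 ± 0.42, adjusted p = 0.053), although it was with the length trend left in (adjusted p = 0.045) and at a pseudocount of 5 (adjusted p = 0.0035). Of 16 tested 6 rose and 3 fell.

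Among feedback genes of Wnt and of ERK signalling many rose and none fell. Of 19 Wnt feedback and target genes 13 rose. Tnfrsf19, a receptor induced by beta-catenin, had 59.7 and 31.3 FPKM in the D2 libraries, against 0.537 and 0.501 FPKM in the D0 libraries (log2 fold change 4.43 ± 0.37, adjusted p = 5.4e-06), and Lef1, the DNA-binding partner of beta-catenin, had 18.3 and 10.5 FPKM in the D2 libraries, against 0 and 0.642 FPKM in the D0 libraries (log2 fold change 2.86 ± 0.33, adjusted p = 6e-05). Of 17 FGF and ERK feedback genes 7 rose, with a median of 0.72. Etv5, a factor induced by FGF, had 43.2 and 21.8 FPKM in the D2 libraries, against 3.02 and 3.62 FPKM in the D0 libraries (log2 fold change 2.50 ± 0.23, adjusted p = 1.4e-05). Dusp4, a phosphatase of ERK, had 32.1 and 21.8 FPKM in the D2 libraries, against 3.44 and 3.83 FPKM in the D0 libraries (log2 fold change 2.35 ± 0.28, adjusted p = 7.8e-05), with the call lost at a pseudocount of 0.1 (adjusted p = 0.13). Spred2, an inhibitor of Ras activation, had 11.9 and 5.71 FPKM in the D2 libraries, against 0.249 and 0.864 FPKM in the D0 libraries (log2 fold change 2.18 ± 0.33, adjusted p = 0.00048). Spry2, which has a similar role, had 11.9 and 17.8 FPKM in the D2 libraries, against 11.5 and 19.7 FPKM in the D0 libraries, which overlap, and was not called (log2 fold change -0.18 ± 0.24, adjusted p = 0.65).

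Other pathways gave a few calls each. Gli2, the activator of Hedgehog target genes, had 13 and 4.87 FPKM in the D2 libraries, against 0 in both D0 libraries (adjusted p = 9.4e-05), while its target Gli1 stayed below 1 FPKM in all 4 libraries. Notch2 had 12.07 and 6.66 FPKM in the D2 libraries, against 1.11 and 0.937 FPKM in the D0 libraries (log2 fold change 1.58 ± 0.23, adjusted p = 0.00034), with the call lost at a pseudocount of 5 (0.89), while Hes1, a Notch target, had 9.66 and 18.8 FPKM in the D2 libraries, against 63.2 and 80 FPKM in the D0 libraries (log2 fold change -2.43 ± 0.27, adjusted p = 4.4e-05). A receptor that rose and a target that fell were thus found in 1 list, of whose 12 tested members 2 rose and 2 fell. Crem, a cAMP-responsive repressor, had 27.4 and 19.2 FPKM in the D2 libraries, against 0.651 and 1.62 FPKM in the D0 libraries (log2 fold change 3.00 ± 0.44, adjusted p = 0.00045), and Pde4d, which degrades cAMP, had 17.3 and 7.5 FPKM in the D2 libraries, against 0.539 and 1.2 FPKM in the D0 libraries (log2 fold change 2.02 ± 0.32, adjusted p = 0.00068). Jund, the AP-1 member that restrains growth, had 78.6 and 90.3 FPKM in the D2 libraries, against 403 and 328 FPKM in the D0 libraries (log2 fold change -2.18 ± 0.29, adjusted p = 0.00019). Fosl1, another AP-1 member, had 7.49 and 23.9 FPKM in the D2 libraries, against 0.604 and 0.796 FPKM in the D0 libraries (log2 fold change 2.98 ± 0.48, adjusted p = 0.00087), whereas Fos had 6.68 and 2.45 FPKM in the D2 libraries, against 0.657 and 3.7 FPKM in the D0 libraries and was not called (log2 fold change 0.72 ± 0.43, adjusted p = 0.26).

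Many genes of the integrated stress response and of serine synthesis fell. Of 18 tested 12 fell and 0 rose, with a median of -1.32. In the fit of 4 libraries 8 fell, without D2 replicate 1, 9 fell, and with the length trend left in 9 fell and 1 rose. Trib3, a pseudokinase induced by ATF4, had 0.0177 and 0.481 FPKM in the D2 libraries, against 10.6 and 12.5 FPKM in the D0 libraries (log2 fold change -3.48 ± 0.24, adjusted p = 1.5e-06). Ddit3, which encodes CHOP, had 19.2 and 20.4 FPKM in the D2 libraries, against 77.7 and 60.8 FPKM in the D0 libraries (log2 fold change -1.84 ± 0.32, adjusted p = 0.0015). Asns, the asparagine synthetase, had 13.3 and 20.3 FPKM in the D2 libraries, against 38.9 and 48.8 FPKM in the D0 libraries (log2 fold change -1.57 ± 0.21, adjusted p = 0.00023). Mthfd2, of mitochondrial one-carbon metabolism, had 15.4 and 24 FPKM in the D2 libraries, against 47.1 and 52.4 FPKM in the D0 libraries (log2 fold change -1.63 ± 0.22, adjusted p = 0.00023). In all 4 genes both D2 libraries lay below both D0 libraries, as in 17.4% of all genes tested. Atf4, the factor that drives these genes, had 50.5 and 76.6 FPKM in the D2 libraries, against 100.1 and 160.3 FPKM in the D0 libraries (log2 fold change -1.18 ± 0.22, adjusted p = 0.0019). Its value was -0.89 without D2 replicate 1 and -0.96 without D0 replicate 2, both short of the 2-fold limit.

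Lipid genes rose in part. Of 13 genes of fatty acid synthesis and storage 4 rose and 0 fell. Scd1, a desaturase, had 46 and 21.4 FPKM in the D2 libraries, against 2.25 and 2.97 FPKM in the D0 libraries (log2 fold change 2.72 ± 0.27, adjusted p = 2.3e-05). Plin2, a coat protein of lipid droplets, had 137 and 129 FPKM in the D2 libraries, against 27.1 and 32.9 FPKM in the D0 libraries (log2 fold change 1.81 ± 0.15, adjusted p = 6.1e-06). Fasn, the fatty acid synthase, had 56.8 and 45.6 FPKM in the D2 libraries, against 33.6 and 28.7 FPKM in the D0 libraries and was not called (log2 fold change -0.03 ± 0.23, adjusted p = 0.94). In the cholesterol pathway 1 gene rose and 1 fell of 18, whereas 15.9% of all genes tested were called in either direction. Of 18 lysosome and autophagy genes 5 rose and 1 fell, and 3 rose in the fit of 4 libraries. Those that rose include the lysosomal proteases Ctsl (428 and 262 FPKM in D2 and 22.8 and 41.9 FPKM in D0; log2 fold change 2.83 ± 0.22, adjusted p = 3e-06), Ctsb (2.49 ± 0.22) and Ctsk (2.28 ± 0.27). Tfeb, which drives lysosome genes, fell (2.5 and 2.85 FPKM in D2 and 6.65 and 6.31 FPKM in D0; log2 fold change -1.54 ± 0.28, adjusted p = 0.002), with the call lost at a pseudocount of 5 (-0.83).

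**Figure D5:**
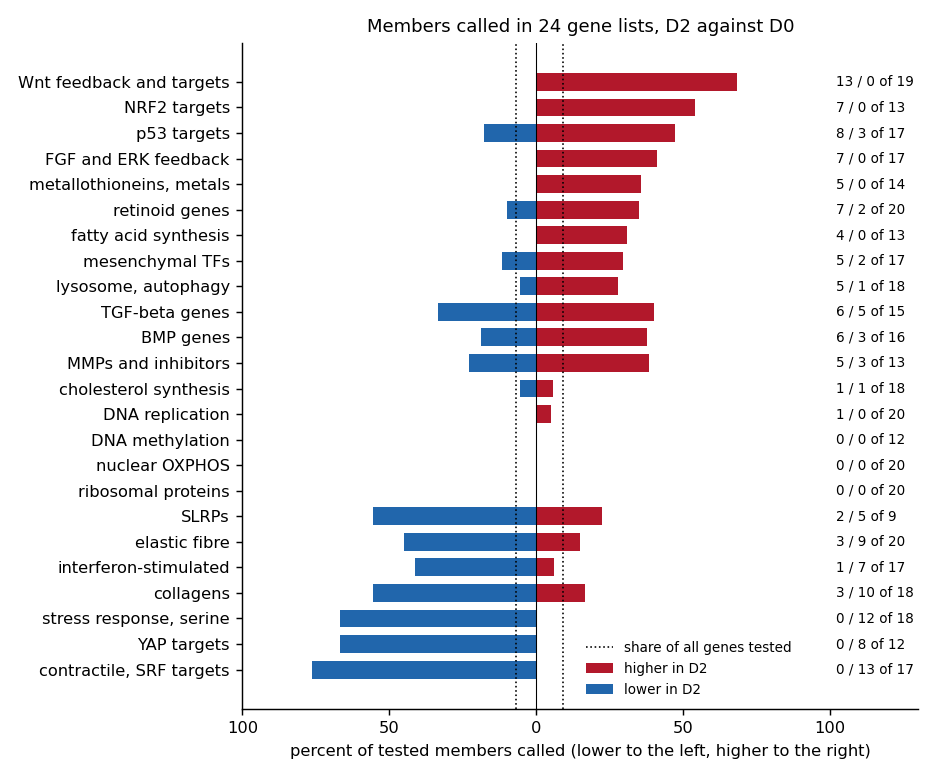
Percent of tested members called lower (blue, to the left) and higher (red, to the right) in D2 for 24 gene lists, with the counts higher / lower of tested at the right. Dotted lines mark the share over all genes tested, 9.05% higher and 6.85% lower; the lists of ribosomal protein, nuclear respiratory chain and DNA methylation genes had no call in either direction.

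Transcription factors of mesenchyme rose more often than they fell, but not in every setting. Of 17 tested 5 rose and 2 fell, against 9.05% and 6.85% of all genes tested. After quantile normalization 6 rose and 4 fell, and at a pseudocount of 0.1, 2 rose and 2 fell. Twist2, a relative of Twist1, had 693 and 722 FPKM in the D2 libraries, against 106 and 124 FPKM in the D0 libraries (log2 fold change 2.34 ± 0.31, adjusted p = 0.0002). Snai1, a repressor of epithelial genes, had 39.9 and 38.1 FPKM in the D2 libraries, against 7.37 and 13.4 FPKM in the D0 libraries (log2 fold change 1.78 ± 0.29, adjusted p = 0.00092). Zeb2, with the same role, had 17.9 and 6.64 FPKM in the D2 libraries, against 0.975 and 1.49 FPKM in the D0 libraries (log2 fold change 1.61 ± 0.32, adjusted p = 0.0031). The calls of Twist2 and Zeb2 were lost at a pseudocount of 0.1, with adjusted p = 0.089 for Twist2 and 0.077 for Zeb2. Prrx1, a limb mesenchyme factor, had 40.7 and 41.1 FPKM in the D2 libraries, against 11.5 and 19.1 FPKM in the D0 libraries and was not called (log2 fold change 0.67 ± 0.18, adjusted p = 0.019). Among 9 T-box factors 4 rose and 1 fell. Tbx2 had 99.99 and 59.2 FPKM in the D2 libraries, against 9.25 and 9.44 FPKM in the D0 libraries (log2 fold change 2.59 ± 0.28, adjusted p = 4.4e-05) and Tbx3 had 13.9 and 6.42 FPKM in the D2 libraries, against 0.557 and 1 FPKM in the D0 libraries (log2 fold change 2.00 ± 0.25, adjusted p = 0.00013). Jarid2, a cofactor of Polycomb repressive complex 2, had 47.9 and 18.2 FPKM in the D2 libraries, against 0.445 and 0.839 FPKM in the D0 libraries (log2 fold change 3.53 ± 0.32, adjusted p = 1e-05). Of 12 DNA methylation and demethylation genes none was called, and Dnmt1 had 24.6 and 18.8 FPKM in the D2 libraries, against 6 and 10.4 FPKM in the D0 libraries (log2 fold change 0.72 ± 0.21, adjusted p = 0.025). With the length trend left in, Dnmt1 was called (1.33, adjusted p = 0.0059).

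The core pluripotency genes Pou5f1, Nanog and Lin28a were listed at 0 in all 4 libraries. Sox2 was the exception among the core factors, with 8.26 and 4.79 FPKM in the D2 libraries, against 0 and 0.182 FPKM in the D0 libraries (log2 fold change 2.63 ± 0.30, adjusted p = 5.9e-05). Klf4, a factor that fibroblasts also use, had 8.78 and 7.22 FPKM in the D2 libraries, against 1.21 and 1.64 FPKM in the D0 libraries (log2 fold change 1.64 ± 0.22, adjusted p = 0.0002), with the call lost at a pseudocount of 5 (0.89). Klf2 had 0.135 and 2.21 FPKM in the D2 libraries, against 8.12 and 14.3 FPKM in the D0 libraries (log2 fold change -2.73 ± 0.48, adjusted p = 0.0015). Of 20 core and naive pluripotency genes 4 rose and 1 fell. Most of the 20 passed the filter only through other libraries of the series. With the filter set on the 4 libraries compared, 5 were tested, of which 4 rose and 1 fell.

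Several genes that were high in D2 were low again in the day 4 libraries. They were chosen after their values were seen, and D4 was not tested against D2. Sox2 had 8.26 and 4.79 FPKM in D2 and 0.708 and 0.554 FPKM in D4. Eomes, a T-box factor of mesendoderm and trophoblast, had 7.91 and 5.7 FPKM in the D2 libraries, against 0 in both D0 libraries (adjusted p = 7.5e-06). In D4 Eomes had 0.303 and 0.387 FPKM. Fosl1 had 7.49 and 23.9 FPKM in D2 and 0.457 and 0.756 FPKM in D4. Inhba, Grem1 and Ptgs1 showed the same order, with 6.12 and 7.83, 2.73 and 3.09 and 4.29 and 4.1 FPKM in D4, all below their D2 values given above. Calcb had 8.5 and 10.16 FPKM and Aldh3a1 2.08 and 1.87 FPKM in D4. Not all D2 risers did so, and Pla2g7 had 476 and 567 FPKM in D4, above both D2 libraries.

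DNA replication genes gave few calls, whereas mitosis genes were called about as often as all genes tested, of which 15.9% were called in either direction. Of 20 DNA replication genes 1 rose and 0 fell, and the gene called was Mcm4, a subunit of the replicative helicase (24.5 and 17.7 FPKM in D2 and 3.05 and 7.62 FPKM in D0; log2 fold change 1.56 ± 0.26, adjusted p = 0.0012). Of 20 mitosis genes 1 rose and 2 fell. Mki67, the proliferation marker, had 7.51 and 7.14 FPKM in the D2 libraries, against 8.8 and 9.07 FPKM in the D0 libraries and was not called (log2 fold change -0.97 ± 0.20, adjusted p = 0.0045). Ccnd1, the G1 cyclin, had 234 and 217 FPKM in the D2 libraries, against 70.9 and 60.8 FPKM in the D0 libraries (log2 fold change 1.33 ± 0.18, adjusted p = 0.00022). Cdkn2a, the locus of p16 and p19, had 151 and 130.4 FPKM in the D2 libraries, against 57.4 and 42.2 FPKM in the D0 libraries (log2 fold change 1.42 ± 0.23, adjusted p = 0.00081). The files give 1 value for the Cdkn2a locus, so its transcripts cannot be told apart. Of 17 p53 target genes 8 rose and 3 fell, but in the fit of 4 libraries 3 rose and without D2 replicate 1 5 did. Gadd45a, a stress-induced growth arrest gene, had 99.1 and 51.6 FPKM in the D2 libraries, against 5 and 7.51 FPKM in the D0 libraries (log2 fold change 3.25 ± 0.39, adjusted p = 9e-05), and Pmaip1, which encodes the death protein Noxa, had 50.2 and 20.3 FPKM in the D2 libraries, against 1.76 and 3.36 FPKM in the D0 libraries (log2 fold change 3.04 ± 0.34, adjusted p = 5.4e-05).

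Several interferon-stimulated genes fell, and 1 rose. Of 17 tested 7 fell and 1 rose, with a median of -0.79. Isg15, a ubiquitin-like modifier, had 0.168 and 0.333 FPKM in the D2 libraries, against 16.5 and 22.4 FPKM in the D0 libraries (log2 fold change -4.07 ± 0.20, adjusted p = 1.5e-07). Bst2 (tetherin) had 9.59 and 15.4 FPKM in the D2 libraries, against 109 and 93.1 FPKM in the D0 libraries (log2 fold change -3.00 ± 0.24, adjusted p = 4.9e-06). Ifit2 had 16.2 and 4.46 FPKM in the D2 libraries, against 0 in both D0 libraries (adjusted p = 0.00075). Among chemokines, Ccl8 had 30.5 and 19.8 FPKM in the D2 libraries, against 0 and 0.274 FPKM in the D0 libraries (log2 fold change 4.45 ± 0.27, adjusted p = 5.8e-07), while Cxcl12, the stromal ligand of Cxcr4, had 1.64 and 2.65 FPKM in the D2 libraries, against 16.8 and 29.4 FPKM in the D0 libraries (log2 fold change -3.56 ± 0.36, adjusted p = 2.5e-05). Cxcl14 fell by 3.10 on the log2 scale. The myeloid markers given above moved in the same direction as the interferon genes, and their part in it was not tested.

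Transcripts of mitochondrial DNA rose while nuclear genes of the same complexes were not called. Of 12 mitochondrial genes tested 10 rose and 0 fell. mt-Cytb had 2566 and 907 FPKM in the D2 libraries, against 7.92 and 29.4 FPKM in the D0 libraries (log2 fold change 6.47 ± 0.73, adjusted p = 5.8e-05). mt-Co1 had 4422 and 1827 FPKM in the D2 libraries, against 82.5 and 305 FPKM in the D0 libraries (log2 fold change 4.07 ± 0.56, adjusted p = 0.00026). In each gene the 2 D2 libraries differed by more than 2-fold between themselves, and they still lay above both D0 libraries. Of 20 nuclear genes of the respiratory chain and ATP synthase none was called, with a median of 0.05, and of 20 ribosomal protein genes none was called, with a median of -0.44. mt-Nd4l, also among the 15 ranked risers, had 264813 and 85853 FPKM in the D2 libraries, against 0 and 5415 FPKM in the D0 libraries (log2 fold change 10.90 ± 2.52, adjusted p = 0.0079), and its call was lost without D2 replicate 1 (adjusted p = 0.071) and in the fit of 4 libraries (adjusted p = 0.11).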

How the data were processed

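RNA was sequenced in 18 libraries, and the 4 of D2 and D0 are compared here. The values are FPKM, which the authors deposited per Ensembl gene in 1 file per library. The unit is not stated and was read from the values. Per the submitters' processing notes the tools were fastp 0.20.1, HISAT2 2.2.1 and StringTie 2.0 with mm10, and the annotation release is not given in the sources used here. Gene symbols and transcript lengths were looked up in a GRCm38 (mm10) annotation in which 55141 of 55401 identifiers matched. Promoter windows came from RefSeq.

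Values were taken to log2(FPKM + 1), and a linear model with a mean for each group was fitted to all 18 libraries with limma 3.58.1 (R 4.3.3), which left 9 residual degrees of freedom. Before the fit, the trend of every library against log2 exonic length, relative to the average library, was estimated by lowess (span 0.4) and subtracted, and weights were estimated with 1 variance per group. The D2 minus D0 contrast was adjusted by Benjamini-Hochberg over 16439 genes. The files hold no counts, so no count model was run, and depth is unknown. The procedure was tested on simulated data in which replicates were independent and a gene had the same spread in all libraries. That test did not cover the wider spread of D0 and D2 or the dependence of the D2 libraries.

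Genes were named by rank (15 per direction), by size of change and role within 63 gene lists of 914 genes, 845 of them tested, and from a fixed set, not all of which is printed. Members and lists were chosen with earlier results of these data known. Replicate numbers were not taken as pairs, since the deviations of same-numbered D2 and D0 libraries had a correlation of -0.06. Tables and figures were made with Python 3.11.15, pandas and matplotlib.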

Additional observations from a re-analysis of the deposited data

How the results depend on the processing

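Over 20 alternatives, no named gene changed sign if it was called in the fit above or in the alternative itself. With the length trend left in, 10 named genes called in neither fit changed sign or went to 0. The count of genes that rose moved by more than 1.5 times from 1487 with the length trend left in (2912), with the length trend left in and no group weights (3204), with the trend left in and median-of-ratios scaling (2301) and at a pseudocount of 5 (691). The count of genes that fell moved as far from 1126 with the length trend left in (643), at a pseudocount of 5 (430) and with no fold threshold (1910). Without D2 replicate 1 both counts also moved by more than 1.5 times. Without D0 replicate 1 the count of genes that rose did so. Leaving out each library in turn gave 852 to 1787 genes that rose and 661 to 1418 that fell. The replicate number as a block gave 1493 and 1118 and changed no call of the 152 named genes tested. Of the 128 named genes called, 8 lost their call at a pseudocount of 0.1 and 7 at a pseudocount of 5. In the fit of the 4 libraries alone 7 lost theirs, and with D2 as 1 sample 1 did. The cause was not tested. Precision is limited by 2 libraries per group, by D2 values that are not independent, and by the unknown depth.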
